A study of Mus musculus with 57 samples.

Results

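Lineage-negative bone marrow of NHD13 transgenic mice was compared with the same preparation from wild-type mice, 3 arrays against 3 out of 57 arrays in the series. The arrays were chosen by their titles. NHD13 mice carry vav-NUP98-HOXD13, a fusion of the nucleoporin NUP98 with the homeodomain protein HOXD13 driven by the vav promoter, which is active throughout blood-forming cells. The labels call these transgenic mice clinically healthy, meaning without clinical signs of leukaemia, and no label states that their marrow was myelodysplastic. The other transgenic group, CA10 (vav-CALM-AF10, also clinically healthy, 3 arrays), was prepared from the same fraction. Whole marrow was measured in NHD13 (3 arrays) and wild-type mice (6 arrays), in CA10 mice (3 arrays) and in wild-type mice titled C57B6 (3 arrays). The labels give no age, sex, strain of the other mice, litter or antibody panel for the lineage depletion, state that none of the mice was treated, and say that wild-type tissue came from litter mates of like age where that was possible. They do not say that the arrays of a group are separate mice, so the p-values measure the spread between arrays, which may be partly technical.

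Granulocyte-monocyte progenitors are the marrow cells from which neutrophils and monocytes arise. At this stage they make the primary granule proteins, among them myeloperoxidase and the serine proteases cathepsin G, proteinase 3 and neutrophil elastase, whereas the secondary and tertiary granule proteins are made later in neutrophil maturation. Depletion of lineage-positive cells is meant to enrich for progenitors in general. NUP98-HOXD13 transgenic mice are known as a model of myelodysplastic syndrome, in which blood cell maturation is disturbed and acute leukaemia can follow.

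Between NHD13 and wild-type lineage-negative marrow 9 of 15314 genes tested passed (0.0588%; limma, Benjamini-Hochberg adjusted p under 0.05), and all 9 were lower in NHD13. The primary granule genes Mpo, Ctsg and Prtn3 were among them, together with the monocyte and dendritic cell transcription factor Irf8, the progenitor surface protein Cd34 and the basophil protease Mcpt8. Mpo was 12.5-fold lower. No fold is given for genes such as Mcpt8 and Cd34, whose NHD13 signals lay near the median of their arrays (5.52, 5.48 and 5.85). The other 3 were Rnf125 (a ubiquitin ligase), Il6st (the shared signalling chain gp130 of the interleukin 6 receptors) and BC035044, a clone symbol named here after its value was seen. No gene passed in the higher direction with all arrays. At an unadjusted p under 0.05 there were 506 genes (3.3%).

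The promoters of the 3 primary granule genes that fell are shown because these genes moved together. Each stretch is the 250 bases before the RefSeq transcription start, 5′ to 3′ on the strand of the gene. Capitals mark matches on either strand to 4 short motifs: GAGGAA (PU.1-type), TTNNGCAA (C/EBP-type), TGTGGT (RUNX-type) and AACNG (MYB-type).
Mpo promoter, GRCm38.p6 chr11:87793534-87793783, plus strand: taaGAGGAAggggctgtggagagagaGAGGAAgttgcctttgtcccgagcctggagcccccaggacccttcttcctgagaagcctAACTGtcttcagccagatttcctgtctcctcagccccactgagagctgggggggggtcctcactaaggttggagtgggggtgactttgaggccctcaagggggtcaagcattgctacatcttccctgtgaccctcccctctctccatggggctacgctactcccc
Ctsg promoter, GRCm38.p6 chr14:56102575-56102824, minus strand: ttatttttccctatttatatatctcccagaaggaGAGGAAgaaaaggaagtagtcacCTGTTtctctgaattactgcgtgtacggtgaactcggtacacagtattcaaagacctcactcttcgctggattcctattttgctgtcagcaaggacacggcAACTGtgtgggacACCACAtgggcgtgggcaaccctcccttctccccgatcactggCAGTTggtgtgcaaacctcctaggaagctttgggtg
Prtn3 promoter, GRCm38.p6 chr10:79879417-79879666, plus strand: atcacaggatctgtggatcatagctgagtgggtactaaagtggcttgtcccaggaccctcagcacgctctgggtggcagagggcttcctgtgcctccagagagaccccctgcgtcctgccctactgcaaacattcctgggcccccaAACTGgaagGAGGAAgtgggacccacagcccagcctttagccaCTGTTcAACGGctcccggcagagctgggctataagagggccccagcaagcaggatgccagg
The Mpo stretch held GAGGAA at 2 places, beginning 247 and 224 bases before the start, and AACNG at 1 place. The Ctsg stretch held GAGGAA at 1 place, 216 bases before the start, TGTGGT at 1 place and AACNG at 3 places. The Prtn3 stretch held GAGGAA at 1 place, 95 bases before the start, and AACNG at 3 places. No stretch held TTNNGCAA. None of these motif matches overlapped another. Of 32851 promoters in the table, cut to the same length, 23.3% held GAGGAA, 9.56% TTNNGCAA, 14% TGTGGT and 74.2% AACNG. A match describes the letters only.

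One NHD13 array stood apart before any gene was compared. On the Gapdh control probe sets the 3′ signal exceeded the 5′ signal by 2.95 on the log2 scale in NHD13 array 3, against 0.00 to 0.27 in the other 8 lineage-negative arrays. For Actb the difference was 3.37 against 0.72 to 1.27. A larger 3′ excess is the usual mark of degraded RNA. Across genes, NHD13 array 3 correlated with NHD13 arrays 1 and 2 at r = 0.75 and 0.75, while arrays 1 and 2 correlated at 0.96 (genes are not independent replicates). In every lineage-negative group, array 3 also had a narrower range of values, with 75th percentiles of 6.90 to 7.07 against 7.26 to 7.39 for the other 6. Signals of the sex-linked genes differed too. Xist was at 6.01, 5.77 and 5.91 in NHD13 and at 6.12, 10.86 and 10.51 in wild type, and Eif2s3y was at 8.50, 8.63 and 6.66 against 8.47, 3.38 and 3.28. On these genes the NHD13 arrays and wild-type array 1 carried the male pattern and wild-type arrays 2 and 3 the female pattern. The degraded NHD13 array 3 was mixed on other Y-linked genes. Kdm5d was at 3.89 there, at 6.56 and 6.67 on NHD13 arrays 1 and 2, and at 3.27 and 2.95 on wild-type arrays 2 and 3. Uty was at 7.30 on NHD13 array 3 and at 4.40 and 5.53 on wild-type arrays 2 and 3. On its other probe sets NHD13 array 3 lay below NHD13 arrays 1 and 2 and above wild-type arrays 2 and 3. One of these read 4.91 on NHD13 array 3, 6.78 and 7.01 on NHD13 arrays 1 and 2, and 3.44 and 3.72 on wild-type arrays 2 and 3. The part of sex in the changes below was not tested.

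**Figure D1:**
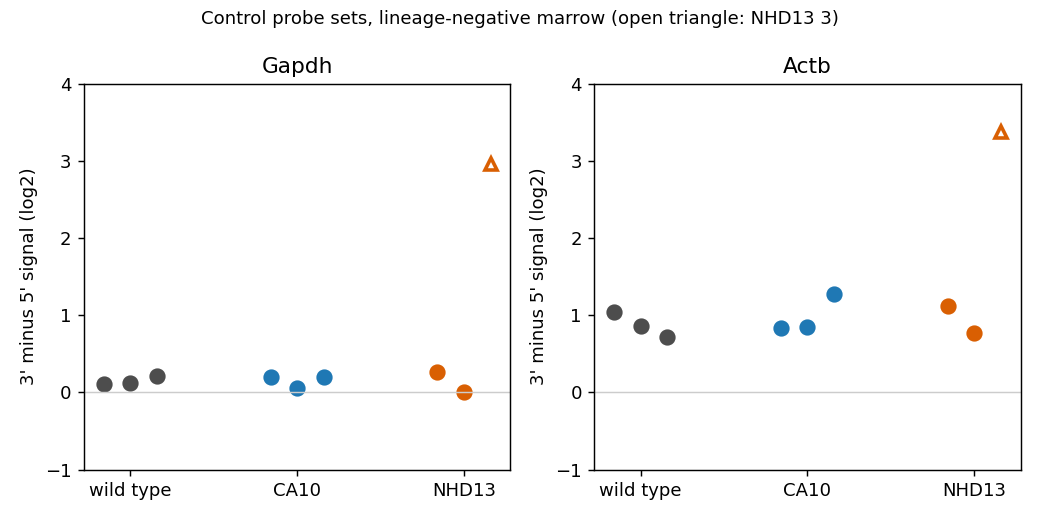
The 3′ minus 5′ signal (log2) of the Gapdh and Actb control probe sets on the 9 lineage-negative arrays, 1 point per array, by group. NHD13 array 3, the open triangle, lies at 2.95 for Gapdh and 3.37 for Actb, above all other arrays.

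The labelled fraction was checked on markers chosen after their values were seen, apart from Kit, Cd34, Cd27 and Cd3e. In wild-type mice Kit, the stem cell factor receptor, was at 9.93 ± 0.21 (SD, n = 3) in lineage-negative and 8.29 ± 0.41 (SD, n = 6) in whole marrow. The mature myeloid integrin Itgam was at 3.89 ± 0.21 in lineage-negative and 9.49 ± 0.85 in whole marrow. The T cell chain Cd3d was at 6.45 ± 0.42 against 9.71 ± 0.45 and the B cell chain Cd79a at 7.08 ± 0.38 against 9.28 ± 0.42. Cd3e was at 7.46 ± 0.44 against 7.50 ± 0.43 and so did not separate the preparations. In NHD13 mice Kit was at 8.50 (7.69 to 9.64) in lineage-negative and 8.05 (7.90 to 8.26) in whole marrow, which overlapped. Cd34 was at 5.62 in NHD13 lineage-negative and 8.29 in NHD13 whole marrow, and Cd27 at 4.90 and 6.68, so both were lower in the lineage-negative preparation. In wild type Cd34 was at 8.48 and 7.27 and Cd27 at 6.61 and 5.72. The called primary granule genes, however, were lower in lineage-negative than in whole marrow of wild type. Mpo was at 11.81 and 13.10, Ctsg at 10.46 and 12.16 and Prtn3 at 9.69 and 12.44. Itgam was at 4.13 and 9.66 and Cd3d at 6.24 and 9.20 in the NHD13 preparations. Whether the preparations of the 2 genotypes were equally enriched for progenitors was not tested.

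Among the primary granule genes, myeloperoxidase (Mpo) was at 7.34, 8.26 and 8.89 on the NHD13 arrays and at 12.34, 11.31 and 11.77 on the wild-type arrays, in log2 RMA signal. The groups did not overlap, and the array with degraded RNA was the highest of the NHD13 arrays. The difference was -3.64 ± 0.41 (log2, SE, n = 3 and 3), with a limma adjusted p of 0.0218. Without NHD13 array 3 it was -4.01 with an adjusted p of 0.00177. Ctsg was at 5.52, 6.45 and 7.01 against 11.23, 9.65 and 10.50, a difference of -4.13 ± 0.47 (adjusted p = 0.0218). Without array 3 the Ctsg difference was -4.47 (adjusted p = 0.00283). Prtn3 was at 6.54, 6.70 and 6.83 against 10.50, 9.08 and 9.48, a difference of -3.0 ± 0.36 (adjusted p = 0.0293). Without array 3 the Prtn3 difference was -3.07 (adjusted p = 0.0114). In each of these genes wild-type array 1 was the highest and wild-type array 2 the lowest of the wild-type arrays.

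The remaining primary granule genes did not pass. Neutrophil elastase (Elane) was at 6.45, 6.24 and 6.40 against 8.99, 7.54 and 8.15, a difference of -1.87 ± 0.37 (adjusted p = 0.28). The groups did not overlap for Elane. The same held for Serpinb1a, a protease inhibitor that guards against the granule proteases (difference -1.83), for Hexa, a lysosomal hexosaminidase subunit (-1.01), and for Srgn, the proteoglycan core that packs granule proteases (-0.92). Lysozyme (Lyz2) was at 8.61, 7.06 and 6.81 against 8.52, 7.80 and 7.96, so the groups overlapped. Ctsc, which activates the granule serine proteases, differed by -0.01 ± 0.53, and by 0.44 without NHD13 array 3. In total 3 of the 9 tested primary granule genes fell and 7 of 9 were lower on every NHD13 array than on every wild-type array, a pattern seen in 4.33% of all genes. The median difference over the 9 genes was -1.83, and -1.66 without array 3, beside -0.05 and -0.01 over all genes tested. One further list member, Prss57, had no probe set naming it alone. In bulk tissue, fewer cells of a type and less RNA per cell cannot be told apart.

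**Figure D2:**
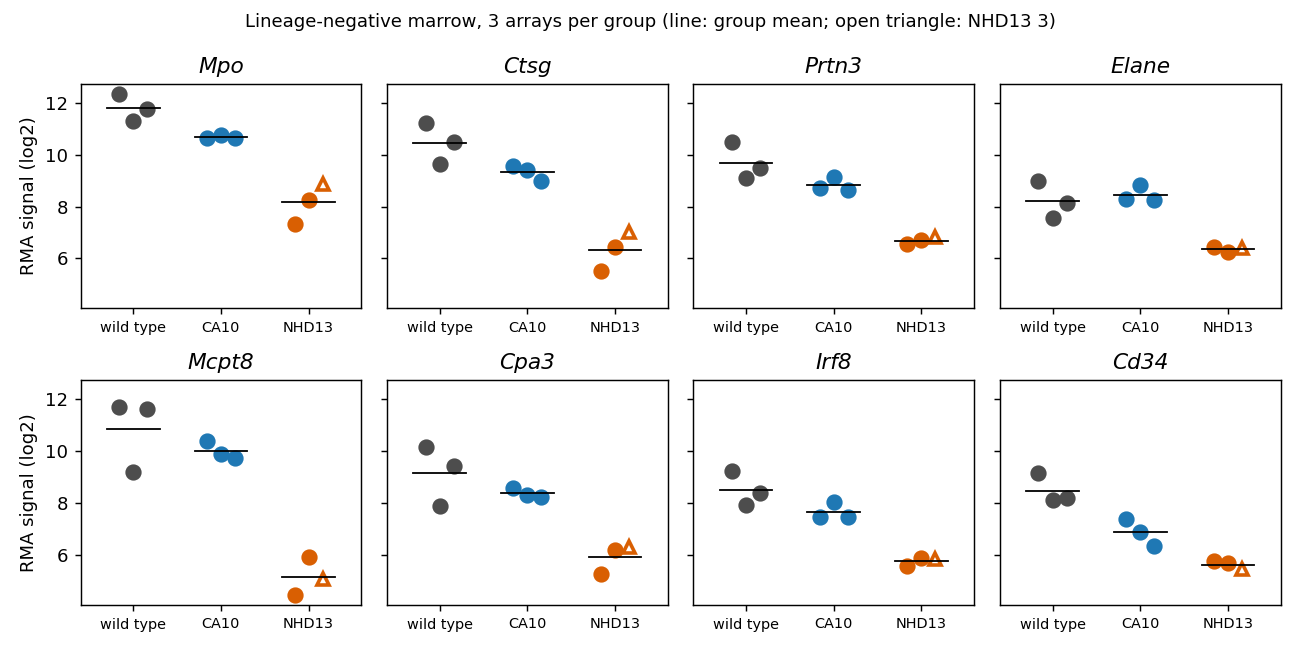
RMA signal (log2) of 8 genes in lineage-negative marrow of wild-type, CA10 and NHD13 mice, 1 point per array with the group mean as a line. Every NHD13 point, the open triangle of array 3 included, lies below every wild-type point, and for Mpo the NHD13 points span 7.34 to 8.89 against 11.31 to 12.34.

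The calls rested on few arrays. With NHD13 array 1, wild-type array 1 or wild-type array 3 left out, 0 genes passed in limma (394, 244 and 427 at an unadjusted p under 0.05), although all 9 differences stayed negative and Mpo, Ctsg and Prtn3 were among those lost. Without NHD13 array 3, in contrast, 31 genes passed (0.202%; 26 lower, 5 higher), among them all 9. Without NHD13 array 2, 11 genes passed, with Mpo among them (adjusted p = 0.0491) but not Ctsg (0.0502) or Prtn3 (0.0707). With the replicate number as a block 15 genes passed, all lower and again with all 9. Quantile normalization of the deposited values, and a fit to the 2 compared groups alone, each gave 0 (701 and 362 at an unadjusted p under 0.05).

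Genes otherwise typical of granulocyte-monocyte progenitors were tested as a list of 19. None passed with all arrays, and 4 fell without NHD13 array 3 (26 of all genes fell there, 0.17%). F13a1, the factor XIII A chain made by the monocyte lineage, was at 4.48, 4.39 and 6.94 on the NHD13 arrays and at 7.66, 7.51 and 7.22 on the wild-type arrays. Array 3 was the NHD13 array nearest to wild type, and the difference was -2.19 ± 0.62 (adjusted p = 0.693) with it and -3.02 (adjusted p = 0.0066) without it. The chemokine Ccl9 was at 6.05, 6.28 and 7.50 against 9.41, 8.17 and 8.62, a difference of -2.12 (adjusted p = 0.293) and -2.57 without array 3 (adjusted p = 0.0172). Its other probe set differed by -2.18. Emb, a cell adhesion protein, was at 6.11, 6.26 and 6.72 against 9.07, 7.86 and 8.81. Its difference was -2.21 (adjusted p = 0.112), and -2.39 without array 3 (adjusted p = 0.0298). Plac8, a small protein abundant in myeloid progenitors, was at 8.73, 9.35 and 9.01 against 11.70, 10.68 and 11.25, a difference of -2.18 (adjusted p = 0.0821) and -2.17 without array 3 (adjusted p = 0.0379).

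The groups did not overlap in 9 of these 19 genes, all lower in NHD13, against 4.33% of all genes. Besides the 4 just given they were Nkg7, Cst7, Ly86, Mgst1 and Anxa3, with differences between -1.58 and -1.06. Ms4a3, a marker of this progenitor stage, was at 5.97, 5.64 and 6.77 against 8.0, 6.62 and 6.96. Its difference was -1.07, or -1.39 without array 3. The list median was -1.06, and -1.22 without array 3.

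Of 20 myeloid growth factor and surface receptors none passed, with or without array 3. The shared beta chain of the interleukin 3, interleukin 5 and GM-CSF receptors (Csf2rb) was at 4.85, 5.46 and 5.02 on the NHD13 arrays and at 8.51, 6.75 and 6.90 on the wild-type arrays. The difference was -2.28 ± 0.45 (adjusted p = 0.28), and its other probe set gave -1.17 with no overlap either. Csf2ra, the GM-CSF receptor alpha chain, was at 5.75, 6.16 and 5.93 against 6.92, 7.04 and 7.13, a difference of -1.08 ± 0.25 (adjusted p = 0.412). The other Csf2ra probe set gave 0.40 with overlap, and -0.42 without array 3. It was at 5.76, 5.18 and 7.94 against 5.73, 5.41 and 6.53. Cd93, a lectin-like receptor of early progenitors, was at 6.74, 6.78 and 6.72 against 9.38, 8.34 and 8.41, a difference of -1.97 ± 0.34 (adjusted p = 0.149). The next brightest Cd93 probe set gave -2.54 without overlap, and 3 dim ones gave -0.15, 0.07 and 0.40. Without array 3 these were -1.91, -0.22, -0.32 and 0.06. The inhibitory Fc receptor Fcgr2b differed by -1.90 on the probe set used. Its other 4 probe sets differed by -0.97 to 0.03 with overlap, and by -1.48 to -0.07 without array 3. Those with NHD13 means of 8.17 and 6.42 were brighter in both groups than the one used (4.80). They differed by 0.03 and -0.67. The M-CSF receptor Csf1r was at 6.07, 5.98 and 7.33 against 7.95, 6.98 and 7.75, so array 3 overlapped with wild type. Its difference was -1.10, and -1.53 without array 3. The other Csf1r probe sets differed by 0.05 and 0.02, or by -0.36 and -0.10 without array 3. Across the 20 receptors the median was -0.29, and 5 were lower and 1 higher without overlap (4.33% and 2.3% of all genes).

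Of 18 tested myeloid transcription factors 1 fell (0.0588% of all genes). Irf8, which directs monocyte and dendritic cell fate, was at 5.58, 5.88 and 5.84 on the NHD13 arrays and at 9.22, 7.92 and 8.37 on the wild-type arrays. The difference was -2.73 ± 0.35 (adjusted p = 0.0361), and the other Irf8 probe set gave -1.19 without overlap. Cebpa, which is required for granulocyte-monocyte progenitors to form, was at 5.26, 5.00 and 6.52 against 7.98, 6.26 and 7.33. Its difference was -1.60 ± 0.49 (adjusted p = 0.8), and -2.06 without array 3 (adjusted p = 0.13). Gfi1, a repressor needed for neutrophil formation, was at 4.43, 3.79 and 4.07 against 6.25, 4.19 and 4.84, which overlapped. The ETS factor Spi1 (PU.1) was at 6.93, 6.68 and 8.19 against 7.56, 7.01 and 7.56. The highest Spi1 signal was on the array with degraded RNA, and the difference was -0.11 with it and -0.57 without it. Runx1 differed by -0.55, Myb by -0.63 and Myc by -0.87, none past the test. Other Runx1 probe sets ranged from -0.45 to 0.47, and those of Myb gave -1.93 and -1.07. Id2, an inhibitor of basic helix-loop-helix factors, was lower on all 3 NHD13 arrays (4.92, 5.37 and 4.51 against 6.48, 5.66 and 6.85) and did not pass (adjusted p = 0.581). Its other probe sets differed by -0.53 and -0.33.

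Late granule genes mark maturing neutrophils. Of 17 such genes none passed, none was separate between groups in either direction, and the median difference was 0.30 (0.50 without array 3). Camp, the cathelicidin, was at 8.82, 6.08 and 7.65 on the NHD13 arrays and at 7.58, 6.36 and 6.41 on the wild-type arrays. Chil3 was at 7.16, 4.10 and 6.37 against 6.09, 4.33 and 4.84. The mean signal over the 17 genes was 6.88, 5.45 and 6.07 in NHD13 and 6.29, 5.38 and 5.66 in wild type, overlapping. Mean signals over the 16 monocyte and macrophage markers were 5.49, 5.39 and 6.11 against 5.88, 5.56 and 5.99. Whether the level of residual mature cells bears on the progenitor genes was not tested.

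**Figure D3:**
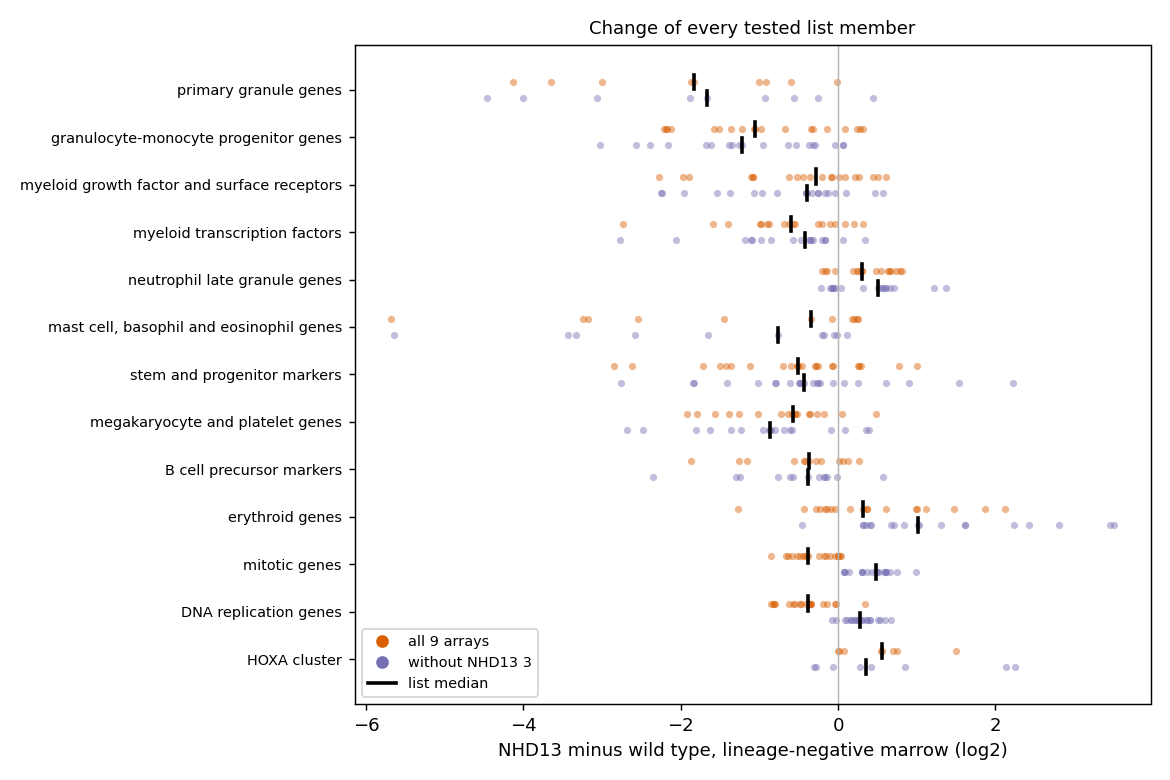
Difference between NHD13 and wild-type lineage-negative marrow (log2) for each tested member of 13 gene lists, 1 point per gene, with all 9 arrays in orange and without NHD13 array 3 in violet. Black bars are list medians. The primary granule list has medians of -1.83 and -1.66, and the mitotic list turns from -0.38 to 0.49.

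Of all genes tested, the largest difference was in a basophil gene. Mcpt8, a protease restricted to basophils and their precursors, was at 4.47, 5.93 and 5.06 on the NHD13 arrays and at 11.71, 9.20 and 11.62 on the wild-type arrays. The difference was -5.69 ± 0.65 (adjusted p = 0.0218), and -6.51 without wild-type array 2. Cpa3, the mast cell carboxypeptidase, was at 5.25, 6.18 and 6.28 against 10.14, 7.87 and 9.43. It differed by -3.24 ± 0.53 (adjusted p = 0.112), and by -3.43 without array 3 (adjusted p = 0.0435). The IgE receptor chains Fcer1a (-3.18) and Ms4a2 (-2.54), and the eosinophil granule protein Prg2 (-1.45), were lower on every NHD13 array than on any wild-type array but did not pass. Of the 11 tested genes 1 fell (0.0588% of all genes), 5 were separate in the lower direction (4.33% of all genes), and the median was -0.34. Wild-type array 2 was the lowest wild-type array for Mcpt8, Cpa3, Fcer1a, Ms4a2 and Prg2.

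Of 23 stem and progenitor markers 1 fell (0.0588% of all genes) and 6 were separate in the lower direction (4.33% of all genes). Cd34, a sialomucin of progenitors that separates granulocyte-monocyte from megakaryocyte-erythroid progenitors, was at 5.75, 5.68 and 5.44 on the NHD13 arrays and at 9.15, 8.10 and 8.17 on the wild-type arrays. The difference was -2.85 ± 0.37 (adjusted p = 0.0361). Kit was at 8.19, 9.64 and 7.69 against 10.12, 9.96 and 9.71, a difference of -1.43 ± 0.44 (adjusted p = 0.8) and -1.02 without array 3. Cd27, a tumour necrosis factor receptor family member of early progenitors, was at 4.77, 4.78 and 5.14 against 7.21, 6.40 and 6.23 (difference -1.72, adjusted p = 0.293). Sox4 was at 7.49, 8.33 and 5.55 against 10.24, 9.46 and 9.54, and its difference shrank from -2.62 to -1.84 without array 3. The other Sox4 probe sets gave -0.62 to 0.35, and -0.87 to -0.03 without array 3. The list median was -0.50.

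Neighbouring lineages were measured as lists chosen for what this fraction could hold. Of 18 megakaryocyte and platelet genes 7 were separate in the lower direction (4.33% of all genes) and none passed. Tubb1, the platelet tubulin, was at 6.62, 6.52 and 8.64 against 9.02, 9.11 and 9.02, and fell without array 3 (-2.48, adjusted p = 0.0435). Among 13 B cell precursor markers Dntt, the terminal transferase also made by lymphoid-primed progenitors, was at 6.65, 6.24 and 7.89 against 9.48, 8.0 and 8.92. It fell without array 3 (-2.36, adjusted p = 0.0452). Its other probe sets gave -2.09 and -0.35 with all arrays. Ighm, the IgM heavy chain, was at 10.23, 9.81 and 9.86 against 12.55, 11.77 and 12.87, a difference of -2.43 (adjusted p = 0.112). Of the 10 other Ighm probe sets, 1 differed by -2.88 without overlap and 9 by -0.53 to 0.49. Without array 3 these were -2.54 and -0.93 to 0.17. None of 12 T cell markers, 10 NK and cytotoxic genes or 13 dendritic cell genes passed.

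Erythroid genes had no call in 19 genes, and 1 NHD13 array was high. The mean over the list was 11.97, 10.61 and 8.63 on the NHD13 arrays and 9.91, 10.42 and 9.65 on the wild-type arrays. NHD13 array 1 was the highest and the degraded array 3 the lowest of the 6. Alas2, the erythroid enzyme that starts haem synthesis, was at 13.02, 8.46 and 6.57 against 7.03, 8.03 and 6.63. The median difference was 0.32, and 1.02 without array 3. NHD13 array 1 was also the highest of the 6 for the interferon-induced Rsad2 (12.91, with the others between 7.21 and 8.28) and the p53 target Cdkn1a (10.72, with the others between 7.14 and 8.83). The part of these features of array 1 in the myeloid calls was not tested.

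Proliferation lists changed sign with the degraded array. Over 19 mitotic genes the mean was 10.65, 10.46 and 8.27 on the NHD13 arrays and 10.14, 10.40 and 9.79 on the wild-type arrays. The median difference was -0.38 with all arrays and 0.49 without array 3. Over 20 DNA replication genes it was -0.39 and 0.28. No member of either list passed.

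Smaller gene groups gave no call either. Of 5 phagocyte oxidase genes, whose products make the neutrophil oxidative burst, 2 were separate in the lower direction (4.33% of all genes) and the median was -0.77. Ncf4, a cytosolic oxidase subunit, was at 6.00, 6.05 and 6.31 against 7.88, 6.79 and 7.33 (difference -1.22, adjusted p = 0.791). Stefin genes encode inhibitors of cysteine proteases and are abundant in myeloid cells. Stfa3 was at 7.27, 4.35 and 4.61 on the NHD13 arrays and at 4.33, 4.22 and 4.34 on the wild-type arrays, so that array 1 stood above all others. It did not pass here (1.11, adjusted p = 0.946) and rose in NHD13 whole marrow (4.52, adjusted p = 9.19e-05). None of 8 MHC class II genes, 15 p53 target and cell death genes, 15 interferon response genes or 15 stromal and vessel genes passed, with medians of -0.44, 0.33, 0.32 and 0.02.

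Among the homeobox genes NHD13 array 3 also decided the calls. Hoxa9, a homeobox factor of stem and progenitor cells, was at 9.73, 10.42 and 5.43 on the NHD13 arrays and at 8.24, 8.07 and 7.16 on the wild-type arrays. Arrays 1 and 2 were above and array 3 below every wild-type array. The difference was 0.70 ± 1.05 (adjusted p = 0.946) with array 3 and 2.25 without it (adjusted p = 0.0379). The other, dimmer Hoxa9 probe set read 7.79, 8.0 and 7.99 against 7.32, 7.20 and 7.50, with no overlap and array 3 level with array 2. Hoxa10 was at 5.34, 6.67 and 4.08 against 3.93, 3.88 and 3.79. Its difference was 1.50 (adjusted p = 0.946), and 2.14 without array 3 (adjusted p = 0.0471). The other Hoxa10 probe set gave 0.13, and -0.32 without array 3. Of the 8 tested HOXA genes 3 were separate in the higher direction, against 2.3% of all genes, and 2 rose without array 3 (0.0326% of all genes rose there).

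Further members of the homeobox group were Hoxa5 (0.56), Hoxa7 (0.74) and Hoxa4 (0.55), none past the test. Without array 3 these differences were 0.28, 0.42 and 0.85. Hoxa5 was at 7.546, 7.606 and 8.423 against 7.186, 7.170 and 7.545, so the groups were barely separate. Hoxa7 was at 7.61, 7.74 and 8.63 against 7.32, 7.21 and 7.21. Both count among the separate HOXA genes above, and in both the degraded array 3 was the highest. The other Hoxa5 probe set was at 7.10, 7.48 and 7.33 against 5.54, 5.80 and 5.60, a difference of 1.66. Hoxc4 was at 5.95, 6.88 and 7.26 against 4.62, 5.06 and 5.40 (difference 1.67 ± 0.39, adjusted p = 0.412). Among the HOX cofactors, Pbx3 was at 8.57, 9.54 and 9.22 against 7.19, 7.41 and 6.00, a difference of 2.24 ± 0.47 (adjusted p = 0.293), and its other probe set gave 1.21 without overlap. Meis1 differed by -0.48. Hoxd13, the mouse gene of the fusion's partner, was at 5.48, 5.44 and 5.56 against 5.03, 5.42 and 5.18, and Nup98 at 9.17, 9.16 and 8.10 against 8.97, 9.19 and 8.70. Neither passed, and whether their probe sets can detect the transgene is not stated in the sources used here.

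Genes marking NHD13 tissues in earlier results of these data were also measured. Klhl4, a kelch-repeat protein, was at 6.15, 6.34 and 4.58 on the NHD13 arrays and at 3.50, 3.56 and 3.82 on the wild-type arrays. The difference was 2.06 ± 0.42 (adjusted p = 0.293), and 2.61 without array 3 (adjusted p = 0.00181), while the other, dim probe set gave 0.04. Dach2 was at 6.23, 6.80 and 6.76 against 4.97, 4.99 and 5.32 (difference 1.50, adjusted p = 0.244), and its other, dim probe set gave 0.49. Mmp13 was at 4.25, 3.67 and 3.80 against 4.04, 3.38 and 3.43, which overlapped. Without array 3, Dsp (desmoplakin, a cell junction protein) and Mab21l2 also rose. Dsp was at 7.99, 7.28 and 3.77 against 3.73, 3.54 and 3.96, and array 3 was thus within the wild-type values. The other Dsp probe sets gave 2.30 without overlap and 0.34. Mab21l2 was at 8.01, 6.69 and 6.40 against 5.35, 4.96 and 5.11, a difference of 2.21 without array 3 (adjusted p = 0.0436).

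**Figure D4:**
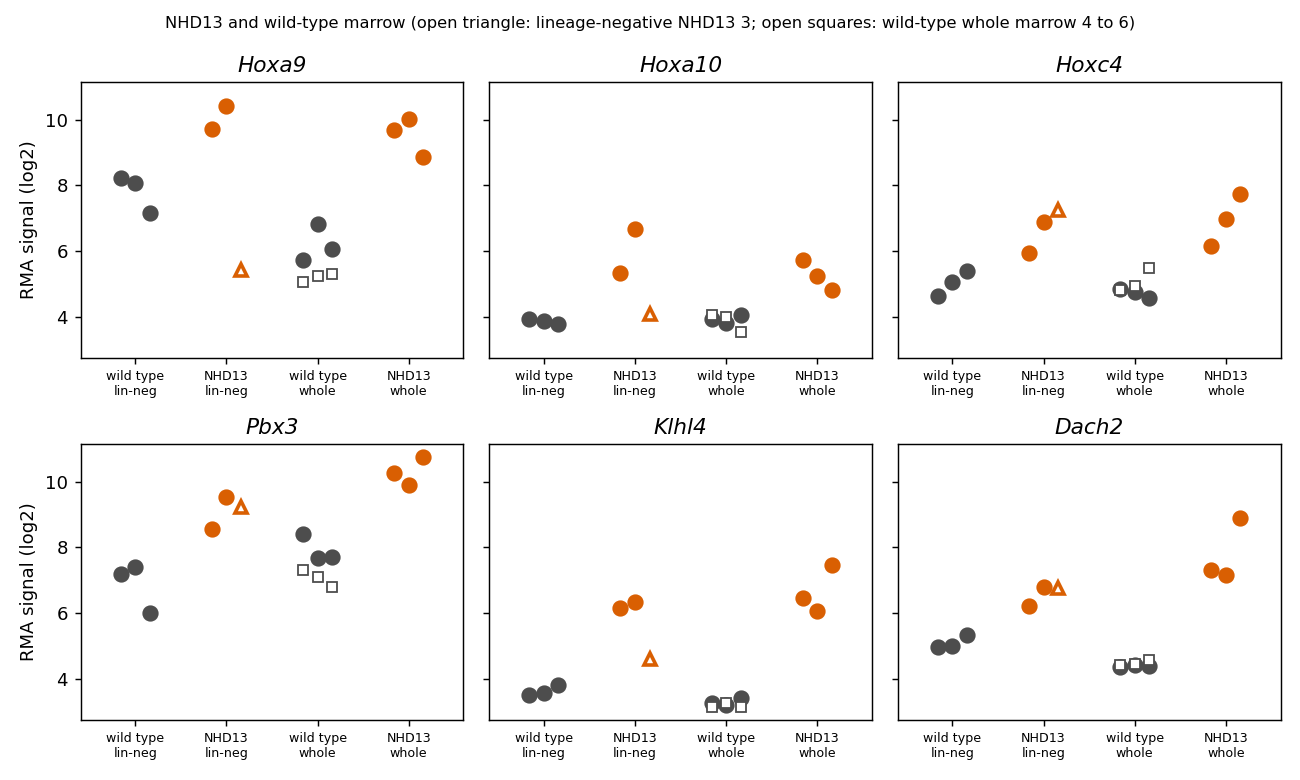
RMA signal (log2) of 6 genes in lineage-negative and whole marrow of wild-type and NHD13 mice, 1 point per array. Lineage-negative NHD13 array 3 (open triangle) reads 5.43 for Hoxa9 and 4.58 for Klhl4, apart from NHD13 arrays 1 and 2 at 9.73 and 10.42 and at 6.15 and 6.34.

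To ask whether the progenitor differences distinguish the NHD13 mice from the other transgenic group, NHD13 was compared with CA10 lineage-negative marrow. This comparison shares the NHD13 arrays with the one above. No gene passed with all arrays (limma, 321 at an unadjusted p under 0.05, 2.1%). Without NHD13 array 3, 5 genes passed (0.0326%): Klhl4 was higher in NHD13 and Mpo, Ctsg, F13a1 and Ear3, an eosinophil ribonuclease, were lower. Mpo was at 10.64, 10.76 and 10.63 on the CA10 arrays, between the NHD13 and wild-type arrays. The NHD13 minus CA10 difference of Mpo was -2.52, and -2.88 without array 3 (adjusted p = 0.0293). Ctsg was at 9.57, 9.42 and 9.0 on the CA10 arrays, also between the other groups. Elane was at 8.29, 8.84 and 8.23 in CA10 and overlapped with wild type. Cd34 was at 7.37, 6.88 and 6.33 in CA10, above all NHD13 and below all wild-type arrays. Hoxa9 was at 9.91, 10.01 and 10.03 in CA10, near NHD13 arrays 1 and 2.

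Whether the NHD13 effect differed between lineage-negative and unsorted marrow was tested over 24 marrow arrays. These include the 3 of CA10 whole marrow for the shared spread. The effect differed in 43 genes (0.281%), with the lineage-negative effect the more negative in 36. In whole marrow Mpo was at 12.81 ± 0.70 (SD, n = 3) in NHD13 and 13.10 ± 0.28 (SD, n = 6) in wild type, a difference of -0.29. The lineage-negative effect on Mpo was more negative by 3.35 ± 0.46 (difference of effects -3.35, adjusted p = 0.000791). For Ctsg the whole-marrow difference was -0.40 and the difference of effects -3.73 (adjusted p = 0.000592). For Prtn3 they were 0.03 and -3.03 (adjusted p = 0.00192), and for Irf8 0.04 and -2.78 (adjusted p = 0.000886). No primary granule gene and no granulocyte-monocyte progenitor gene passed in whole marrow in either direction, where 66 genes fell (0.431%) and 44 rose (0.287%). With wild-type whole marrows 1 to 3 alone, which leaves out 3 arrays of narrower range, the effect differed in 26 genes, and with all 57 arrays in the fit it differed in 8. Without lineage-negative NHD13 array 3 it differed in 60 (52 more negative, 8 more positive), and the difference of effects was -3.72 for Mpo, -4.07 for Ctsg, -3.10 for Prtn3 and -2.81 for Irf8. Mpo, Ctsg, Prtn3 and Irf8 passed with whole marrows 1 to 3 (adjusted p = 0.0123, 0.0109, 0.0186 and 0.0146).

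For Cd34 the differences in the preparations had opposite signs. In whole marrow it was at 7.25, 8.02 and 9.61 in NHD13 and between 6.71 and 8.12 in the 6 wild-type arrays, a difference of 1.02 that did not pass (adjusted p = 0.485). The difference of effects was -3.87 ± 0.60 (adjusted p = 0.00208). Plac8 (-2.39) and Emb (-2.86) of the progenitor list, and Cd27 (-2.68) of the stem and progenitor list, also passed this test. With whole marrows 1 to 3 alone Cd34 and Plac8 still passed (adjusted p = 0.0198 and 0.0146), and Emb and Cd27 did not (0.0755 and 0.0742).

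Of the 11 tested mast cell, basophil and eosinophil genes 6 fell in whole marrow (0.431% of all genes), against 1 in lineage-negative marrow (0.0588% of all genes). Mcpt8 was at 7.05, 6.87 and 6.58 in NHD13 whole marrow and between 9.17 and 10.47 in wild type, a difference of -2.97 (adjusted p = 0.000221). The difference of effects for Mcpt8 was -2.72 and did not pass (adjusted p = 0.0634). Fcer1a differed by -2.80 in whole and -3.18 in lineage-negative marrow. Prg2 differed by -3.71 in whole marrow (adjusted p = 0.000994). Ear3 was at 6.61, 6.14 and 5.32 in NHD13 whole marrow and between 11.03 and 12.71 in wild type, a difference of -5.89. In lineage-negative marrow Ear3 was at 3.64, 3.73 and 3.97 in NHD13 against 6.30, 5.06 and 5.73. The difference was -1.91 (adjusted p = 0.138), and -2.01 without array 3 (adjusted p = 0.0471). The effects differed by 3.97 (adjusted p = 0.000592). The deposited values start at 2.58, so a fall of 5.89 could not be read from the lineage-negative wild-type mean of 5.69. Ear genes are near-identical copies, so the Ear3 signal may include other members.

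Hoxa9 and Klhl4 were higher in NHD13 whole marrow, where the Gapdh 3′ minus 5′ signal was -0.03 to 0.17. Hoxa9 was at 9.68, 10.03 and 8.87 against 5.06 to 6.81 in wild type, a difference of 3.83 (adjusted p = 0.00235). Klhl4 differed by 3.43 (adjusted p = 1.76e-07), Pbx3 by 2.82 (adjusted p = 9.19e-05) and Dach2 by 3.36 (adjusted p = 7.2e-08). Neither the Hoxa9 (-3.12, adjusted p = 0.306) nor the Klhl4 effect (-1.37, adjusted p = 0.343) was shown to differ between preparations. For Dach2 the effect was smaller in lineage-negative marrow by 1.86 (difference of effects -1.86, adjusted p = 0.0496), a call lost with whole marrows 1 to 3 alone (adjusted p = 0.171).

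**Figure D5:**
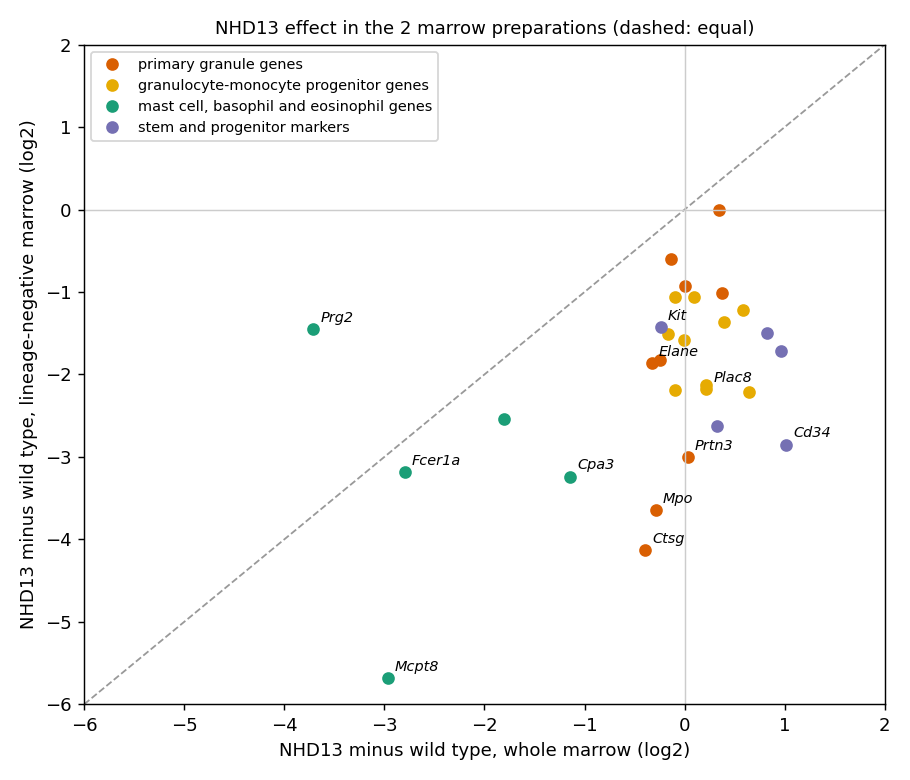
NHD13 minus wild-type difference (log2) in whole marrow on the horizontal axis and in lineage-negative marrow on the vertical axis for the named genes of 4 lists, 1 point per gene, with a dashed line of equality. Mpo, Ctsg and Prtn3 lie near 0 in whole marrow (-0.29, -0.40 and 0.03), whereas Mcpt8 is lower in both (-2.97 and -5.69).

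Some wild-type whole marrows were titled C57B6, and no label gives the strain of the others. Of those others, arrays 4 to 6 had a narrower range, and C57B6 array 2 had a Gapdh 3′ minus 5′ signal of 1.36. Strain cannot be told apart from these features here. Between C57B6 and the other wild-type whole marrows 2946 of the 15314 genes tested passed, and 2 of the 9 calls were among them. Whether 2 of 9 exceeds the share over all genes was not tested. Il6st was lower in C57B6 by 3.0 on the log2 scale (difference -3.0) and Mcpt8 higher by 1.70. For Il6st only 1 of 4 probe sets gave the large NHD13 difference (-2.59), and the others gave -0.78, -0.18 and 0.18. Without lineage-negative NHD13 array 3 the others gave -0.91, -0.27 and -0.09. Of the genes linked to strain in earlier results, Ifi202b was at 4.37, 4.41 and 5.02 in NHD13 against 5.32, 5.03 and 5.21, and Mndal differed by 0.09. No source used here gives the strain of the lineage-negative mice, and its part in the 9 calls was not tested.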

How the data were processed

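RNA of 57 mouse tissue samples was labelled and hybridised, 1 array per sample. The authors deposited log2 signals made with RMA, per the submitters' processing notes; a version is not given in the sources used here. The values run from 2.58 to 14.65, and the arrays do not share 1 distribution. Of 44943 probe sets, 34842 name 1 gene in the platform annotation, 931 several and 9106 none, and 64 are controls; only the first kind was used. Each of 18165 genes was represented by its probe set of highest mean over all arrays (8980 had more than 1), and 15314 genes above the 40th percentile of their array on at least 3 arrays were tested. No depth applies to arrays, and their number limits the precision.

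Group means were fitted with limma 3.58.1 (R 4.3.3) to the 9 lineage-negative arrays, with moderated variances and Benjamini-Hochberg adjustment over all genes tested. A gene is called, or said to have risen or fallen, at an adjusted p under 0.05. Differences are log2 with their standard errors. The difference of effects was fitted to 24 marrow arrays, with C57B6 and CA10 whole marrow as groups of their own that add only to the shared spread. The fits were tested on simulated data. The deviations of NHD13 arrays 2 and 3 correlated best with those of the same-numbered wild-type array (0.676 and 0.745). Those of NHD13 array 1 did not (0.207 with wild-type array 1). The replicate number was tried as a block, although the labels state no pairing. The other alternatives were leaving out arrays, the signal filter, the probe set rule, the normalization, the arrays in the fit and the variance model. Also tried were the Gapdh 3′ minus 5′ signal, narrow arrays as a block and leaving out genes called between C57B6 and other wild-type marrow.

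The arrays, the 33 gene lists and the tests were chosen with earlier results of these data known, so a list's direction is not independent evidence. Named genes are called genes with the largest differences whose groups do not overlap, clone symbols and sex-linked genes left out; members of the myeloid, homeobox, NHD13 tissue, strain and sex-linked lists; up to 5 members of every other list by smallest p; and control and fraction markers. Promoter sequences are from RefSeq, GRCm38.p6, and 8 of the 9 tested primary granule genes had an entry; those shown have the smallest p.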

Additional observations from a re-analysis of the deposited data

Results flagged for a closer look

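The genes below are those named here or above whose NHD13 effect differed between lineage-negative and whole marrow by limma's test of the difference itself (adjusted p under 0.05 over 24 arrays). Values are the lineage-negative effect minus the whole-marrow effect on the log2 scale. Among myeloid progenitor genes the difference was -3.73 for Ctsg, -3.35 for Mpo, -3.03 for Prtn3, -2.78 for Irf8, -2.86 for Emb and -2.39 for Plac8. Among stem and progenitor markers it was -3.87 for Cd34 and -2.68 for Cd27. For Dntt, the terminal transferase of lymphoid precursors, it was -3.03, for Gp5, a platelet glycoprotein, -2.22, and for the survival gene Bcl2 -2.13 (other Bcl2 probe sets differed by -1.25 to 0.30 in lineage-negative marrow). For Il6st it was -2.47, for Rnf125 -2.08 and for BC035044 -3.40. For Dach2 it was -1.86 and for the collagenase Mmp13 -2.71; Dach2 rose by 3.36 and Mmp13 by 3.00 in whole marrow, and their lineage-negative differences were 1.5 and 0.29. For Ear3 it was 3.97, the one positive value among the genes given here, with a difference of -5.89 in whole and -1.91 in lineage-negative marrow. The lineage-negative wild-type mean of Ear3 was 5.69, so a fall as large as in whole marrow could not be read there. Without lineage-negative NHD13 array 3 the values were -3.04 for Emb, -3.78 for Cd34, -3.51 for Dntt and 3.88 for Ear3, and each gene given here still passed. Bcl2, Cd27, Dach2, Emb and Mmp13 did not pass with wild-type whole marrows 1 to 3 alone (adjusted p = 0.16, 0.0742, 0.171, 0.0755 and 0.0929).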

How the results depend on the processing

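The count of 9 genes became 0 to 31 when 1 array of either group was left out, 21 without the third array of each group, 0 after quantile normalization, 0 in a fit to the groups compared, 43 with all 57 arrays, 15 with the replicate block, 32 with the Gapdh covariate and 37 with narrow arrays as a block. The filters, the mean of probe sets, the variance model and leaving out genes called between C57B6 and other wild-type marrow gave 7 to 10. The 3 primary granule calls became 0 to 3 with 1 array left out, 0 after quantile normalization, 0 with only the groups compared and 1 with all 57 arrays; the block did not change them. The block changed no named gene's call in the main comparison. All 9 called genes stayed lower under every alternative run. Against CA10 the count of 0 became 0 to 5 with 1 array left out, 2 without the third arrays, 9 with all 57 arrays, 1 with the replicate block, 3 with the Gapdh covariate and 5 with narrow arrays as a block. The 43 differences of effects became 26 with wild-type whole marrows 1 to 3 and 8 with all 57 arrays, and was 60 without NHD13 array 3.

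Signs turned for Ctsc, which ranged from -0.71 to 0.44 with 1 array left out and was 0.36 without the third arrays, 0.0030 with the mean of probe sets, 0.090 after quantile normalization and 0.40 with the Gapdh covariate. Nup98 ranged from -0.32 to 0.21 with 1 array left out and was 0.085 without the third arrays, 0.094 after quantile normalization and 0.21 with the Gapdh covariate. Spi1 ranged from -0.57 to 0.18 with 1 array left out and was 0.18 after quantile normalization. With 1 array left out, Hoxa4 ranged from -0.042 to 0.85 and Hoxa9 from -0.24 to 2.25. The cause of these changes was not tested. Over the differences of all named genes and alternatives, 1575 kept their direction and side of the threshold, 61 lost a call, 47 gained one and 16 changed sign.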
